A study of Mus musculus with 8 samples.

Results

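The proximal insulin receptor pathway was followed in the liver through 9 genes: the receptor itself (Insr), its docking proteins (Irs1 and Irs2), the catalytic and regulatory subunits of phosphoinositide 3-kinase (Pik3ca and Pik3r1), the kinase PDK1 (Pdpk1), the kinases Akt1 and Akt2, and the phosphatase PTP1B (Ptpn1). The genes were taken by name, for their place in the pathway, by a rule that uses no measured value, although earlier results of these data were known. All 9 were among the 46517 genes of the count table, and all 9 were among the 13278 genes that passed the filter on low counts. Whole liver was taken from 4 MøFoxO1-KO mice, which carry FoxO1 loxP/loxP alleles and a Cre driven by the myeloid lysozyme promoter (Lyz2-Cre), and from 4 WT littermates, which carry the same loxP alleles without Cre. All 8 were male C57BL/6 mice that began a NASH diet at the age of 6 weeks, ate it for 25 weeks, were 31 weeks old at the end and had fasted for 16 hours. Cre acts in myeloid cells, whereas the RNA came from a 10-mg piece of whole liver in which hepatocytes are the main cell type. Mice are named by the numbers of their labels, 22 to 25 for WT littermates and 26 to 29 for MøFoxO1-KO mice.

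Insulin binds its receptor, a tyrosine kinase of the cell surface, which phosphorylates IRS1 and IRS2. These dock phosphoinositide 3-kinase, whose lipid product brings PDK1 and AKT to the membrane, and AKT then acts on enzymes and transcription factors of glucose and lipid metabolism, FoxO1 among them. PTP1B removes phosphate from the receptor and from IRS proteins. In the fasted liver, Irs2 is known as a FoxO-dependent gene, and the pathway is studied in fatty liver because hepatocytes become resistant to insulin there.

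None of the 9 genes was differentially expressed in MøFoxO1-KO mice by edgeR's quasi-likelihood test, at an adjusted P under 0.05 with an absolute log2 fold change over 1.5, where 0.188% of all tested genes were called. None passed at an adjusted P under 0.05 alone either, against 0.294% of all tested genes, and DESeq2 and limma-voom also gave 0 of 9 at both limits. At an unadjusted P under 0.05, 1 member, Irs2, was lower (8.06% of tested genes were) and 0 were higher (8.65% of tested genes were). The log2 fold change was below 0 in 8 of the 9 members and in 51.7% of all tested genes. The median log2 fold change was -0.24 over the members and -0.014 over all tested genes. In each of the 9 genes the values of both groups overlapped, whereas the groups did not overlap in 9.71% of tested genes.

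**Figure D1:**
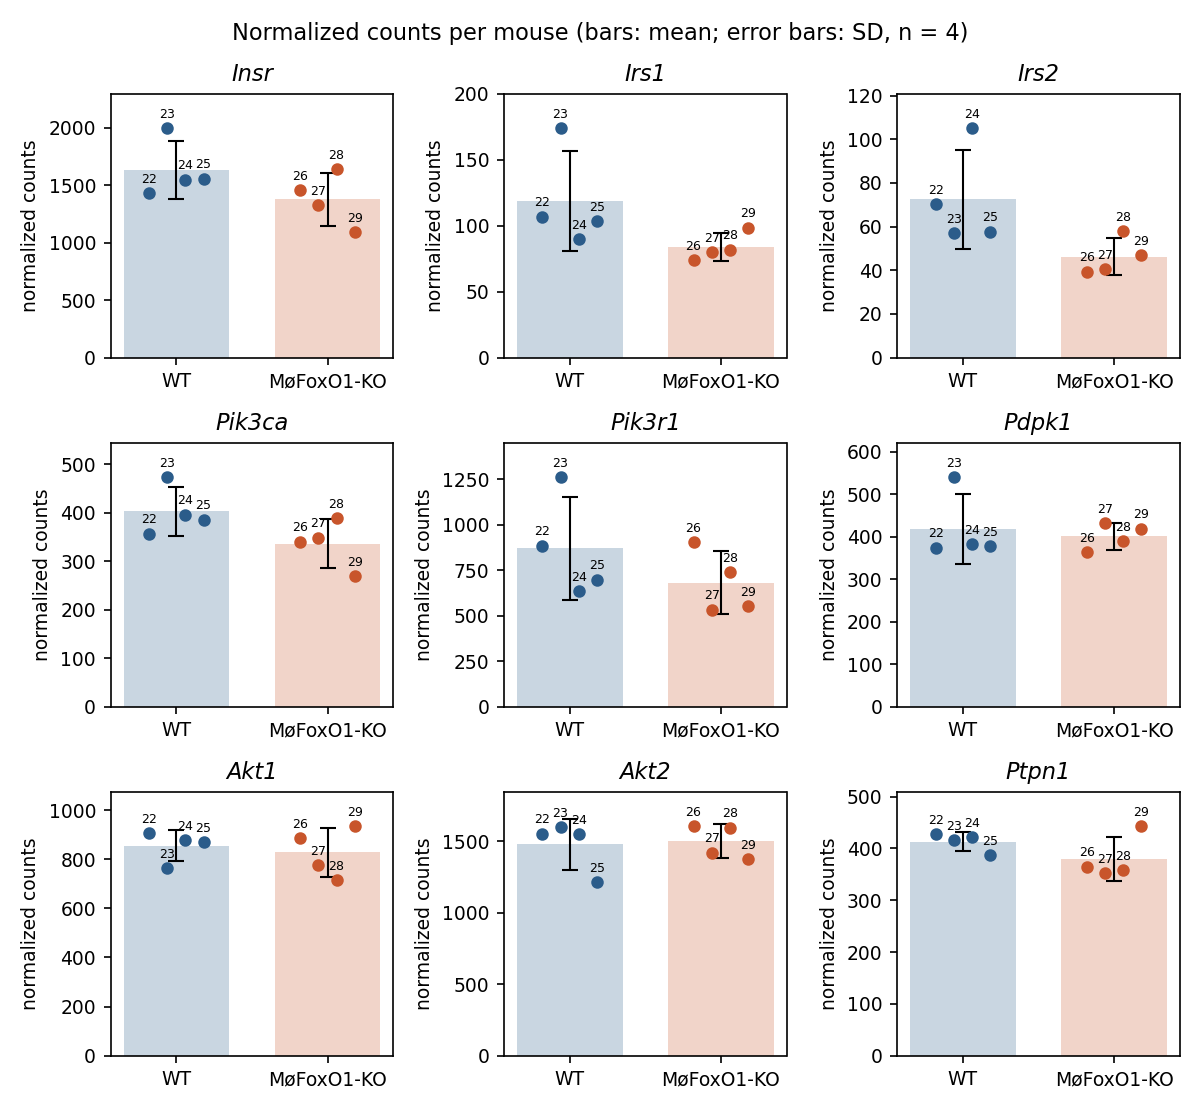
Normalized counts of the 9 genes in each mouse (vertical axes, starting at 0), with WT littermates in blue, MøFoxO1-KO mice in orange and the mouse number above each point. Bars are means and error bars SD of 4 mice. The groups overlap in every panel, and WT mouse 23 holds the highest value of Insr, Irs1, Pik3ca, Pik3r1 and Pdpk1.

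Normalized counts are the reads of a gene put on the scale of the average library after edgeR's TMM scaling. Insr (ENSMUSG00000005534, minus strand of chromosome 8, 3150922 to 3279617 on GRCm38) encodes the insulin receptor. WT mice 22 to 25 had 1429, 1998, 1549 and 1556 normalized counts of Insr, and MøFoxO1-KO mice 26 to 29 had 1459, 1327, 1637 and 1091. MøFoxO1-KO mouse 28 exceeded 3 of the 4 WT littermates, and mouse 29 was the lowest of all 8. The means were 1633 ± 250 and 1379 ± 230 (SD, n = 4), which is -0.24 ± 0.16 on the log2 scale (fold change ± standard error) with an adjusted P of 0.465. The 95% interval of the fold ran from 0.665 to 1.07, so neither a loss to that lower bound nor no change was excluded. An exact two-sided permutation test of the means gave P = 0.2.

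Irs1 (ENSMUSG00000055980, minus strand of chromosome 1, 82233101 to 82291416) and Irs2 (ENSMUSG00000038894, minus strand of chromosome 8, 10986980 to 11008458) encode the docking proteins of the receptor. They had the lowest log2 fold changes of the 9 genes, and neither passed the adjusted threshold. The promoters of Irs1 and Irs2 share motifs that the other members with a RefSeq window lack. Any link of these motifs to the fold changes was not tested. The 250 bases before the RefSeq start of each gene (GRCm38.p6, minus strand, chromosome 1, 82291440 to 82291689 for Irs1, and chromosome 8, 11008930 to 11009179 for Irs2) are printed 5′ to 3′ because they hold an E-box (CACGTG) and the element TGTTTTG, which are in capitals:
Irs1: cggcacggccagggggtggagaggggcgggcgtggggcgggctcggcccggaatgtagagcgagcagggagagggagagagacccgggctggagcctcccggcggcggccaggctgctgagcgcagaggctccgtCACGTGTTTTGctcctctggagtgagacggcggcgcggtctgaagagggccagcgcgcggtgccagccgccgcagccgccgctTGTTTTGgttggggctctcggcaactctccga
Irs2: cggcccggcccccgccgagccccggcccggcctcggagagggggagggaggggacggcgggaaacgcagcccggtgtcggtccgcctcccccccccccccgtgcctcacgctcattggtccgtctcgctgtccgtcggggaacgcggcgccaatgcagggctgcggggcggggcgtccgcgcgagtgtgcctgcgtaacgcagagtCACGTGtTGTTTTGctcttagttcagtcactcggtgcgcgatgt
In Irs2 the E-box begins 44 bases before the start and TGTTTTG begins 37 bases before it, with 1 base between them. In Irs1 the E-box begins 115 bases before the start, and the first TGTTTTG, at 111, overlaps its last 2 bases. A second TGTTTTG lies 32 bases before the start of Irs1.

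Both motifs were searched on both strands of the 250 bases before each RefSeq start, and were chosen with the values of the members known. The E-box was found in 6.02% and TGTTTTG in 5.56% of 32851 promoters, and 0.295% held both. Of the 9 members, 8 had a window (14 windows in all), and Irs1 and Irs2 alone held either motif. The FOXO consensus TGTTTAC, which 3.17% of promoters hold, was found in 1 of the windows of Akt1. The GC box GGGCGG, which 32.7% of promoters hold, was found in a window of Irs1, Irs2, Ptpn1, Pik3ca, Akt1, Akt2, Pik3r1 and Pdpk1. These matches describe letters and not binding.

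WT mice 22 to 25 had 70.3, 57.0, 105 and 57.7 normalized counts of Irs2, the docking protein most tied to fasting in the liver, and MøFoxO1-KO mice 26 to 29 had 39.3, 40.6, 57.9 and 47.0. Of the 4 MøFoxO1-KO mice, 3 lay under every WT littermate, and mouse 28 lay just above WT mice 23 and 25. The means were 72.6 ± 22.6 and 46.2 ± 8.49 (SD, n = 4), and the difference did not pass the adjusted threshold. The log2 fold change was -0.65 ± 0.27 (SE, from the fit), with an unadjusted P of 0.0341 and an adjusted P of 0.259. Its 95% interval ran from -1.24 to -0.059 in log2, and the exact permutation test gave P = 0.0857. The unadjusted P was above 0.05 when WT mouse 22, WT mouse 24, or MøFoxO1-KO mouse 26, 27 or 29 was left out, and the smallest log2 fold change was -0.42, without WT mouse 24. Irs2 rested on few reads, 34 to 114 per mouse. Counting error alone came to 11.8% of a value in WT littermates and 15.3% in MøFoxO1-KO mice, beside a spread between mice of 31.1% and 18.4%.

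Irs1 had 107, 174, 89.5 and 104 normalized counts in WT mice 22 to 25, and 73.8, 80.0, 81.6 and 98.5 in MøFoxO1-KO mice 26 to 29. WT mouse 23 stood high, and WT mouse 24 lay below MøFoxO1-KO mouse 29. The means were 118 ± 37.8 and 83.5 ± 10.6 (SD, n = 4), with a log2 fold change of -0.50 ± 0.23 (SE, from the fit), an unadjusted P of 0.0547 and an adjusted P of 0.314. Without WT mouse 23 the log2 fold change of Irs1 was -0.26, and without WT mouse 24 it was -0.62. The exact permutation test gave P = 0.0571. Both docking proteins thus had lower means in MøFoxO1-KO mice without passing the adjusted threshold, and they did not deviate in the same mice: WT mouse 23 had the highest Irs1 and the lowest Irs2 of the WT littermates, and WT mouse 24 the reverse.

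Pik3ca (ENSMUSG00000027665, chromosome 3, 32397671 to 32468486) encodes the catalytic subunit p110α. It had 357, 474, 396 and 385 normalized counts in WT mice 22 to 25, and 340, 349, 388 and 269 in MøFoxO1-KO mice 26 to 29. Of the 4 MøFoxO1-KO mice, 3 lay under every WT littermate and mouse 28 lay above WT mice 22 and 25. The means were 403 ± 50.1 and 336 ± 49.8 (SD, n = 4), with a log2 fold change of -0.26 ± 0.14 (SE, from the fit) and an adjusted P of 0.393. Pik3r1 (ENSMUSG00000041417, minus strand of chromosome 13, 101680563 to 101768217) encodes the regulatory subunit p85α and varied more. Its values were 885, 1263, 635 and 698 in WT mice 22 to 25 and 905, 534, 738 and 551 in MøFoxO1-KO mice 26 to 29. MøFoxO1-KO mouse 26 exceeded 3 WT littermates. The means of Pik3r1 were 870 ± 282 and 682 ± 175 (SD, n = 4), with a log2 fold change of -0.35 ± 0.24 (SE, from the fit) and an adjusted P of 0.503. Without WT mouse 23 the log2 fold change was -0.17 for Pik3ca, -0.12 for Pik3r1 and -0.13 for Insr. Without MøFoxO1-KO mouse 29 it was -0.17 for Pik3ca and -0.15 for Insr.

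Pdpk1 (ENSMUSG00000024122, minus strand of chromosome 17, 24073680 to 24150924) encodes PDK1, which phosphorylates AKT. Its values were 374, 541, 382 and 377 in WT mice 22 to 25 and 363, 432, 389 and 419 in MøFoxO1-KO mice 26 to 29. WT mouse 23 stood far above its 3 littermates, which differed from each other by less than the MøFoxO1-KO mice did. The means were 418 ± 81.6 and 401 ± 30.9 (SD, n = 4), with a log2 fold change of -0.062, a 95% interval from -0.38 to 0.26 and an adjusted P of 0.863. Without WT mouse 23 the log2 fold change of Pdpk1 turned to 0.085.

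Akt1 (ENSMUSG00000001729, minus strand of chromosome 12, 112653821 to 112674884) and Akt2 (ENSMUSG00000004056, chromosome 7, 27591552 to 27640826) encode the kinases of the pathway, of which AKT2 is the one most tied to insulin action on metabolism. Akt1 had 907, 764, 879 and 870 normalized counts in WT mice 22 to 25 and 887, 776, 715 and 936 in MøFoxO1-KO mice 26 to 29. Akt2 had 1554, 1598, 1548 and 1212 in WT mice 22 to 25 and 1607, 1421, 1594 and 1374 in MøFoxO1-KO mice 26 to 29. MøFoxO1-KO mice held both the lowest and the highest value of Akt1, and WT mouse 25 stood low in Akt2. The log2 fold change was -0.046 for Akt1, with a 95% interval from -0.31 to 0.22 and an adjusted P of 0.881. It was 0.021 for Akt2, with an interval from -0.25 to 0.30 and an adjusted P of 0.952. The means were 855 ± 62.6 and 828 ± 101 for Akt1, and 1478 ± 179 and 1499 ± 119 for Akt2 (SD, n = 4, WT littermates first). The direction of Akt2 turned when WT mouse 25 or MøFoxO1-KO mouse 26 was left out, and that of Akt1 when MøFoxO1-KO mouse 28 was.

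Ptpn1 (ENSMUSG00000027540, chromosome 2, 167932057 to 167979385) encodes PTP1B, the inhibitor among the 9. It had the smallest spread of all of them in WT littermates, with 427, 416, 422 and 387 normalized counts in mice 22 to 25. MøFoxO1-KO mice 26 to 29 had 364, 352, 358 and 443. Of the 4 MøFoxO1-KO mice, 3 lay below every WT littermate, and mouse 29 lay above all of them. The means were 413 ± 17.8 and 379 ± 42.9 (SD, n = 4), with a log2 fold change of -0.12, a 95% interval from -0.37 to 0.13, an adjusted P of 0.624 and an exact permutation P of 0.171. Without MøFoxO1-KO mouse 29 the log2 fold change of Ptpn1 was -0.21.

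**Figure D2:**
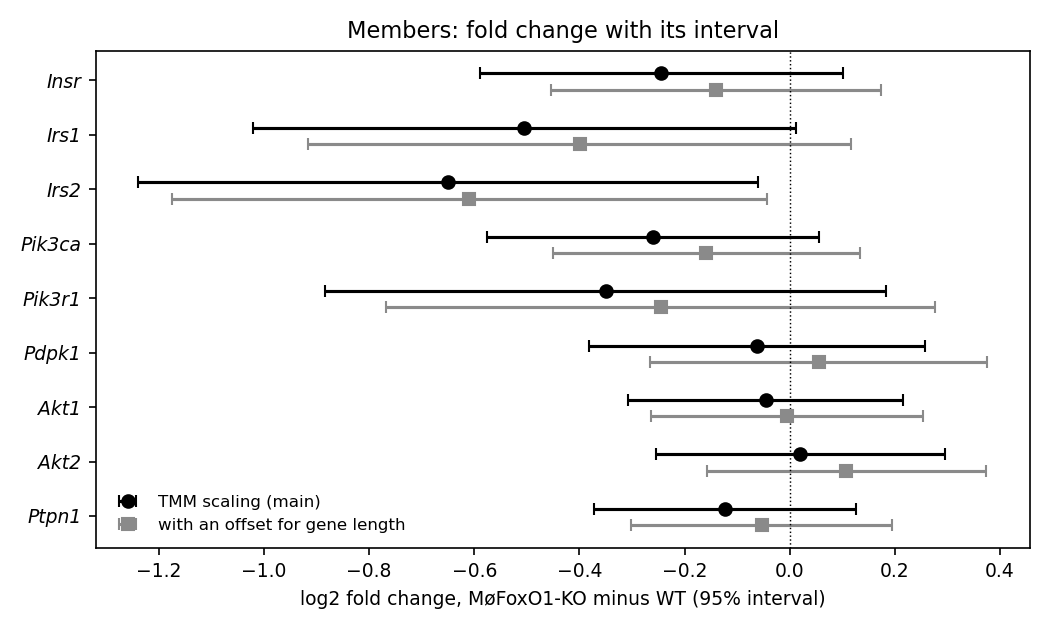
Log2 fold change of each gene in MøFoxO1-KO mice relative to WT littermates (horizontal axis) with its 95% interval, from edgeR with TMM scaling (black circles) and with an added offset for gene length (grey squares). The interval of Irs2 lies below 0 in both fits and those of the other 8 genes include 0 in both.

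The 9 genes differed far more in level than between the groups. Levels were compared between genes as RPKM, which are reads scaled for exon length and, by TMM, for library size. Akt2 (12.6 ± 1.53 in WT littermates and 12.8 ± 1.02 in MøFoxO1-KO mice) and Akt1 (12.7 ± 0.93 and 12.3 ± 1.5) were highest, with no difference between them beyond the spread over the 8 mice (adjusted P = 0.727, exact sign permutation within mice, over 8 neighbour pairs). Insr came next at 10.3 ± 1.58 and 8.72 ± 1.45, below Akt1 in 7 of 8 mice (adjusted P = 0.0469, exact permutation). This pair no longer differed when WT mouse 22, 24 or 25 or MøFoxO1-KO mouse 26, 27 or 29 was left out (adjusted P = 0.075 to 0.0938, exact permutation). Pik3r1 (5.26 ± 1.71 and 4.12 ± 1.06) and Ptpn1 (4.55 ± 0.20 and 4.18 ± 0.47) followed, Pik3r1 below Insr in 8 of 8 mice (adjusted P = 0.0208, exact permutation), and could not be ordered against each other (adjusted P = 0.727, exact permutation). Pik3ca (2.70 ± 0.34 and 2.26 ± 0.33) lay below Ptpn1 in 8 of 8 mice (adjusted P = 0.0208, exact permutation), and near Pdpk1 (2.33 ± 0.45 and 2.23 ± 0.17; adjusted P = 0.271, exact permutation). The docking proteins were the scarcest transcripts of the 9.

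Irs2 stood at 1.10 ± 0.34 RPKM in WT littermates and 0.70 ± 0.13 in MøFoxO1-KO mice, and Irs1 at 0.79 ± 0.25 and 0.56 ± 0.07 (SD, n = 4). Irs2 exceeded Irs1 in 7 of 8 mice, which did not pass after adjustment (adjusted P = 0.1, exact permutation), but did without WT mouse 23 (adjusted P = 0.025). Both levels depend on the gene models of the table. The table's Irs2 model holds 4024 bases of exon, whereas that of GENCODE M21 holds 6323, of which 3963 are coding, and reads on the other bases are not in its counts. Its Insr model holds 9633 bases against 13746, and the other 7 lengths equal those of GENCODE M21. Of the exon bases of Irs1, 2822 (30.9%) are shared with Gm9747 on the opposite strand, which has 0 counts in every mouse. Of those of Irs2, 162 are shared with the antisense gene 9530052E02Rik, which has 0 to 2 counts per mouse. Whether reads were counted by strand, and what was done with reads that fall in both genes, is not given in the sources used here. Part of the reads of Irs1 may therefore be missing from its counts.

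**Figure D3:**
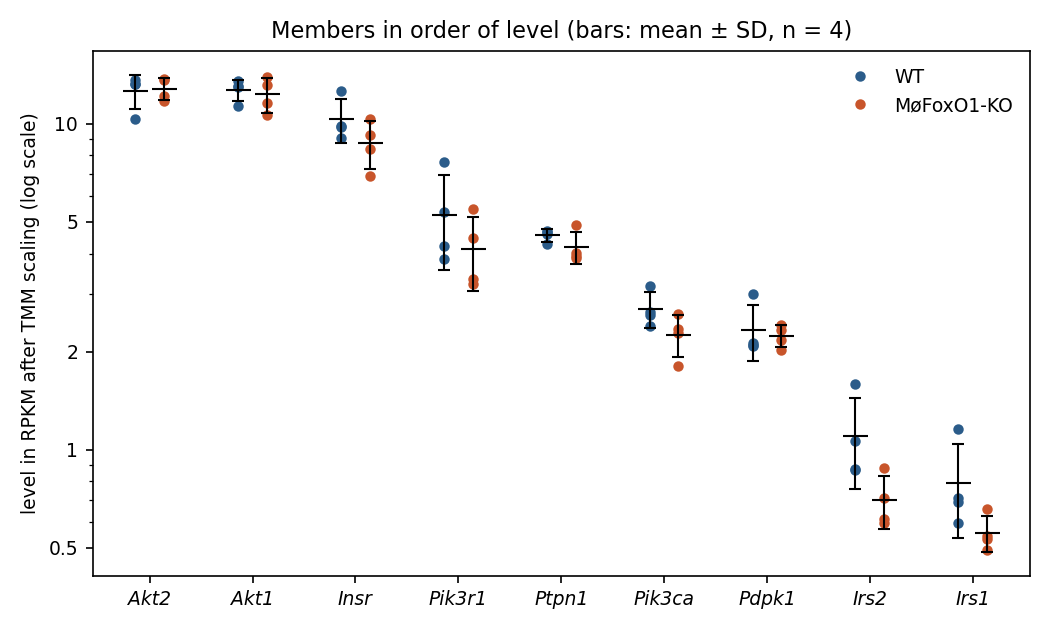
Level of the 9 genes in RPKM, which are reads scaled for exon length and, by TMM, for library size (vertical log axis), ordered from high to low, with 1 point per mouse, WT littermates in blue and MøFoxO1-KO mice in orange. Horizontal bars are means and error bars SD of 4 mice. The order runs from Akt2 and Akt1 near 12 to 13 down to Irs2 and Irs1, and it is the same for the last 4 genes in both groups.

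Ratios within a mouse do not depend on the scaling between libraries, and none separated the groups. They still depend on the shift by exon length described below, which moved with genotype, where the paired genes differ in length. This holds for Irs2 and Irs1 (4024 and 9144 bases), Akt2 and Akt1 (7131 and 4098) and Ptpn1 and Insr (5533 and 9633). No offset for gene length was applied to the ratios. The ratio of Irs2 to Irs1, per kilobase, was 1.54 ± 0.81 in WT littermates, where it ranged from 0.745 to 2.67, and 1.27 ± 0.24 in MøFoxO1-KO mice, where it ranged from 1.09 to 1.61 (SD, n = 4). The ratio of Akt2 to Akt1 was 1.00 ± 0.16 and 1.06 ± 0.18, and that of regulatory Pik3r1 to catalytic Pik3ca was 1.93 ± 0.46 and 1.83 ± 0.42. The ratio of the phosphatase Ptpn1 to the receptor was 0.448 ± 0.067 and 0.496 ± 0.145, with the highest value, 0.707, in MøFoxO1-KO mouse 29.

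Gene length moved with genotype in these libraries, and most of the 9 genes are long. Over all tested genes, the slope of a mouse's log2 counts on log2 exon length, relative to the mean of the 8 mice, lay between 0.013 and 0.106 in WT littermates and between -0.085 and -0.013 in MøFoxO1-KO mice, so that the groups did not overlap. The median log2 fold change of all tested genes ran from 0.30 in the shortest of 10 bins of equal gene number to -0.11 in the longest, and the share of genes with a log2 fold change below 0 ran from 22.2% to 66.9%. Insr, Irs1, Pik3ca, Pik3r1 and Pdpk1 lie in the longest bin, Akt2 in bin 9, Ptpn1 in bin 8, and Irs2 and Akt1 in bin 6. WT mouse 23, with the highest slope, also had the highest value of all 5 members in the longest bin, and MøFoxO1-KO mouse 29, with the lowest slope, had the lowest Insr and Pik3ca, but the highest Irs1 of its group, a Pdpk1 above 3 WT littermates and a Pik3r1 above that of mouse 27.

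With an offset for gene length in the fit, the log2 fold change was -0.14 for Insr, -0.40 for Irs1, -0.16 for Pik3ca, -0.25 for Pik3r1 and 0.056 for Pdpk1. Irs2 moved from -0.65 to -0.61 (unadjusted P = 0.0372, adjusted P = 0.331). The log2 fold change with the offset was -0.0051 for Akt1, 0.11 for Akt2 and -0.053 for Ptpn1, and 7 of the 9 were below 0. The direction of the docking proteins, the receptor and both subunits of phosphoinositide 3-kinase was therefore kept, at a smaller size, and none passed the adjusted threshold.

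**Figure D4:**
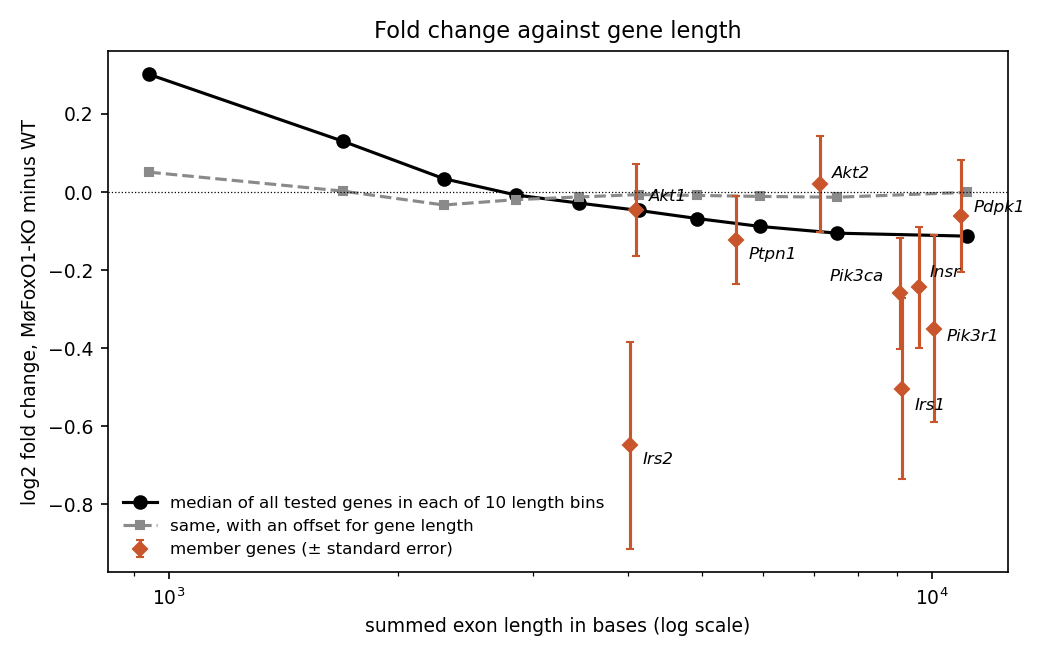
Log2 fold change in MøFoxO1-KO mice (vertical axis) against summed exon length in bases (log axis). Black circles join the medians of all tested genes in 10 bins of equal gene number, which fall from 0.30 to -0.11, grey squares are the same medians with an offset for gene length, and orange diamonds are the 9 genes with their standard error, of which Irs2 and Irs1 lie farthest below the line.

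After removing the group means, the correlation of log2 normalized counts was positive in 20 of the 36 pairs, with a median of 0.148 over 8 mice that share their scaling. The highest was 0.966, between the receptor and Pik3ca, and the lowest was -0.906, between Pik3ca and Akt1. Within groups these genes also moved with the length slope of the library, with r = 0.914 for Insr, 0.836 for Pik3ca and -0.622 for Akt1 over the 8 mice, and the part of that slope in the pairs was not tested. Over all 8 mice, the 5 genes outside the 9 whose pattern was most like that of Irs2 were Mrtfa (r = 0.974), Nfkb2 (r = 0.974), Adamts15 (r = 0.967), Vegfb (r = 0.965) and Myo9b (r = 0.963), out of 13269 genes compared. The difference between the groups was left in these correlations, which describe likeness alone.

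A further 94 genes of the pathway were listed by role, of which 93 were found in the table by name and 87 were tested. The name Lnk had no match, and other names of that gene were not searched. None was called and none had an adjusted P under 0.05 in edgeR, 6 were lower and 1 higher at an unadjusted P under 0.05 (8.06% and 8.65% of all tested genes), and 63 of the 87 had a log2 fold change below 0 (51.7% of all tested genes). Their median log2 fold change was -0.098. With the offset for gene length it was -0.035, and 57 of the 87 were below 0. The groups did not overlap in 4 of them, each lower in MøFoxO1-KO mice, where 4.71% of all tested genes were lower without overlap. These 4 were Pik3cb, Gsk3b, Tsc2 and Trib3.

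Among the other receptors listed, Igf1r, which hepatocytes are known to carry little of, had 2 to 23 reads per mouse. Igf2r, which clears IGF2, had the smallest P of that group (692 ± 129 and 577 ± 35.6 normalized counts, log2 fold change -0.26, adjusted P = 0.363, and -0.12 without WT mouse 23). Of 11 other adaptors and scaffolds, Irs4 had 0 reads in every mouse and Irs3 had 4 or fewer, below the filter on low counts. Of the 9 adaptors tested, 5 were lower and 4 higher, the smallest P being that of the exchange factor Sos1 (log2 fold change -0.31, adjusted P = 0.321, and -0.17 without WT mouse 23). Of the other 9 subunits of the phosphoinositide 3-kinases, 5 were lower and 4 higher. Pik3cb, the catalytic subunit p110β, had 254, 366, 210 and 209 normalized counts in WT mice 22 to 25 and 207, 164, 169 and 168 in MøFoxO1-KO mice 26 to 29. Every MøFoxO1-KO mouse was thus below every WT littermate, by a narrow margin, with a log2 fold change of -0.55 (-0.34 without WT mouse 23) and an adjusted P of 0.212. The log2 fold change of Pik3cb with the offset for gene length was -0.46 (unadjusted P = 0.0391, edgeR).

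Of the partners of AKT and the subunits of mTOR complex 2, 5 were lower and 3 higher, and the smallest P was that of Phb (log2 fold change 0.22, adjusted P = 0.36). Below AKT, 16 of 18 tested targets had a log2 fold change below 0 (51.7% of all tested genes). Foxo1, the deleted gene, was among them at 404 ± 73.9 and 359 ± 73.4 normalized counts in whole liver (log2 fold change -0.17, adjusted P = 0.686, groups overlapping). Gsk3b, a kinase that restrains glycogen synthesis, had 545, 869, 522 and 489 normalized counts in WT mice 22 to 25 and 452, 362, 425 and 328 in MøFoxO1-KO mice 26 to 29. The groups did not overlap, with a log2 fold change of -0.63, an unadjusted P of 0.00875 and an adjusted P of 0.175. Without WT mouse 23 the log2 fold change of Gsk3b was -0.40. Tsc2, which restrains mTOR complex 1, had 678 ± 19.4 and 547 ± 79.8 normalized counts (log2 fold change -0.31, adjusted P = 0.238). Under the offset for gene length, the log2 fold change was -0.24 for Tsc2 (unadjusted P = 0.0614, edgeR) and -0.52 for Gsk3b (unadjusted P = 0.0185, edgeR). With the offset for gene length, the targets Tsc1 and Rps6kb1 turned to a log2 fold change above 0.

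Of the inhibitors and phosphatases that surround Ptpn1, 18 of 25 tested genes had a log2 fold change below 0 (51.7% of all tested genes). With the offset for gene length, Ptprs, Phlpp2, Ppp2ca, Enpp1 and Cblb of these turned above 0. Trib3, a pseudokinase known to bind AKT, had the smallest P of all tested genes of the pathway, the 9 included. It had 348, 299, 332 and 261 normalized counts in WT mice 22 to 25 and 190, 143, 176 and 97.4 in MøFoxO1-KO mice 26 to 29. Every MøFoxO1-KO mouse lay well below every WT littermate, with means of 310 ± 38.8 and 152 ± 41.0 and a log2 fold change of -1.03 (-1.10 with the offset for gene length). The adjusted P was 0.0799 in edgeR and 5.9e-04 in DESeq2, and it ranged from 5.9e-04 to 0.261 over all alternatives. Socs1, an inhibitor induced by cytokines, was higher at an unadjusted P of 0.0371 (log2 fold change 1.05) on 5 to 31 reads per mouse. Its log2 fold change with the offset for gene length was 0.88 (unadjusted P = 0.0613, edgeR).

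Genes that insulin represses and genes that it induces in the liver both had log2 fold changes mostly below 0. Of all tested genes, 51.7% had a log2 fold change below 0. Of the 9 repressed genes, 7 had a log2 fold change below 0, among them Pdk4 (410 ± 144 and 170 ± 110, log2 fold change -1.28, adjusted P = 0.183 in edgeR and 0.0422 in DESeq2, range over alternatives 0.0422 to 0.428) and the coactivator Ppargc1a (log2 fold change -0.53, adjusted P = 0.243). Pck1 and G6pc, the gluconeogenic enzymes, had log2 fold changes of -0.042 and -0.094. Of the 7 induced genes tested, 6 had a log2 fold change below 0, with a median of -0.56, and the smallest P was that of Acaca, the carboxylase of fatty acid synthesis (log2 fold change -0.56, adjusted P = 0.319, and -0.25 without WT mouse 23). Acaca and Fasn, at 17074 and 9849 exon bases, lie in the longest bin, and Scd1 varied widely in WT littermates, from 59760 to 347000 normalized counts.

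**Figure D5:**
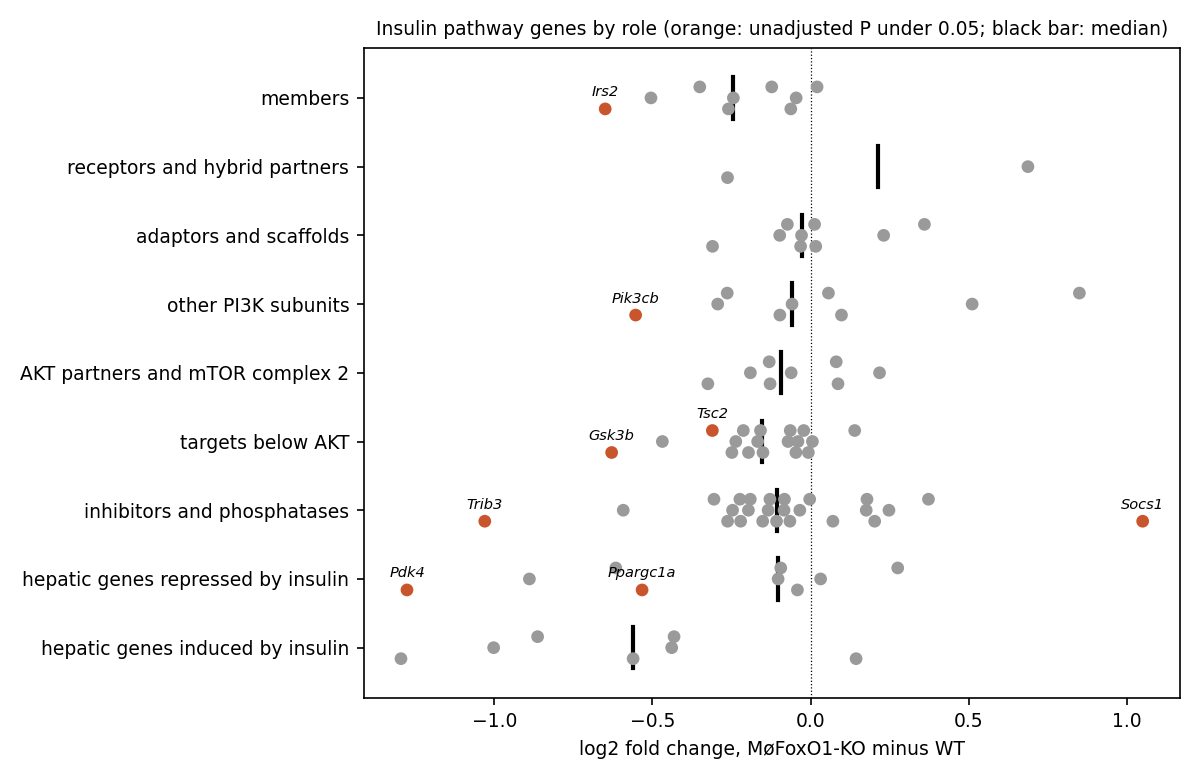
Log2 fold change in MøFoxO1-KO mice (horizontal axis) of the 9 genes (top row, members) and of the 87 further tested genes of the insulin pathway by role. Each point is a gene, orange where the unadjusted P is under 0.05, and black bars are medians. The median of the 9 genes is -0.24, that of the genes induced by insulin -0.56, and 7 further genes are orange.

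Total counts were 15424106 to 16839240 per WT littermate and 15253218 to 18025481 per MøFoxO1-KO mouse. Hepatocyte markers summed to 1104000 to 1555000 normalized counts in WT littermates and 1314000 to 1951000 in MøFoxO1-KO mice (exact permutation P of the sum 0.0571). Of the 9 tested, 7 were higher, 4 of them at an unadjusted P under 0.05, where 8.65% of all tested genes were higher. The 12 macrophage markers summed to 4256 to 7613 and 5098 to 22280, with the groups overlapping (exact permutation P of the sum 0.229). Of these markers, 11 of 12 were higher in MøFoxO1-KO mice and 7 higher at an unadjusted P under 0.05, where 8.65% of all tested genes were. Of 6 exocrine pancreas markers, 3 (Cpa1, Prss2 and Pnlip) were at 0 in every mouse, and only 1 passed the filter on low counts. Their sum was 174 to 242 in WT littermates and 254 to 693 in MøFoxO1-KO mice, without overlap (exact permutation P = 0.0286, the smallest possible). It rests on few genes and does not describe the list as a whole. Of the remaining lists, all 8 endothelial and all 5 tested T and NK markers were higher, whereas all 5 tested cholangiocyte markers were lower. The log2 fold change was below 0 in 51.7% of all tested genes. Stellate markers were 5 lower and 4 higher, B markers 1 and 5, and tested neutrophil markers 2 and 1. The 1 tested adipocyte marker was lower, and the sums of these remaining lists overlapped between the groups. No offset for gene length was applied to any of these lists. Of all tested genes, 22.2% had a log2 fold change below 0 in the shortest length bin and 66.9% in the longest. The part of gene length in the directions of the markers was not tested. The part of all these lists in the values of the 9 genes was not tested, and in whole liver fewer cells of a type and less RNA per cell cannot be told apart.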

How the data were processed

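Liver RNA of 4 MøFoxO1-KO mice and 4 WT littermates was sequenced from polyadenylated RNA. The authors deposited 1 table of raw read counts per Ensembl gene with GRCm38 coordinates and summed exon length. The submitters' processing notes name STAR, featureCounts and mm10, without versions. Each column is 1 mouse.

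Genes under the limits of filterByExpr (minimum count 10, minimum total 15) were dropped, TMM factors were computed, and genotypes were compared in edgeR (version 4.0.16, R version 4.3.3) by its quasi-likelihood test with genotype as the only term. P values were adjusted over 13278 genes (Benjamini-Hochberg). The common biological coefficient of variation was 0.256. Normalized counts were compared by exact permutation over 70 assignments (smallest two-sided P 0.0286, Python 3.11.15 with numpy 2.4.6). The P values of neighbour pairs in the order of levels were adjusted with scipy 1.17.1 (Benjamini-Hochberg). Alternatives were DESeq2 1.42.0, its size factors, upper-quartile scaling, no filter, limma-voom (limma 3.58.1), a minimum of 10 counts per mouse, a robust fit, an offset for gene length (loess span 0.75) and leaving out each mouse. The main edgeR fit, DESeq2, limma-voom and the fit with the offset for gene length were tested on simulated data, and the other alternatives were not. Promoters are from RefSeq GRCm38.p6, and gene models from GENCODE M21.

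All 9 members are named. Of each role group, the genes with an unadjusted P under 0.05 are named, or else the gene with the smallest P, with Foxo1. For the member with the smallest P, the 5 genes most correlated with it are named. Igf1r, Irs3, Irs4, Pck1, G6pc, Fasn and Scd1 were named after their values were seen. The same holds for Ptprs, Phlpp2, Ppp2ca, Enpp1, Cblb, Tsc1 and Rps6kb1. The members and lists were chosen with earlier results of these data known. P values measure the spread between mice, and counting errors cover counting only.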

Additional observations from a re-analysis of the deposited data

Results flagged for a closer look

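In 5 of 42 groups of 4 mice tested by Dixon's ratio (21 genes in each genotype), 1 mouse stood apart from the other 3, where chance alone gives about 1 in 20 groups. WT mouse 23 had 541 normalized counts of Pdpk1 against 374 to 382 in the other WT littermates. The same mouse had 869 normalized counts of Gsk3b against 489 to 545. WT mouse 25 had 1212 normalized counts of Akt2 against 1548 to 1598. MøFoxO1-KO mouse 29 had 443 normalized counts of Ptpn1 against 352 to 364 in the other MøFoxO1-KO mice. MøFoxO1-KO mouse 26 had 207 normalized counts of Pik3cb against 164 to 169. These mice were kept in all results above.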

How the results depend on the processing

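No member was called, and none had an adjusted P under 0.05, in any of the 16 alternatives. Of 144 fold changes of the members under an alternative, 5 changed sign. With the offset for gene length, Pdpk1 turned to a log2 fold change of 0.056 and a difference of means of 16.0 normalized counts. Leaving out 1 mouse gave ranges of the log2 fold change of -0.11 to 0.085 for Pdpk1, -0.11 to 0.031 for Akt1 and -0.065 to 0.060 for Akt2, and of the difference in normalized counts of -32.6 to 23.1, -62.4 to 11.4 and -67.6 to 62.9. The signs turned without WT mouse 23 (Pdpk1, 0.085), MøFoxO1-KO mouse 28 (Akt1, 0.031), WT mouse 25 (Akt2, -0.065) and MøFoxO1-KO mouse 26 (Akt2, -0.016, -14.8 normalized counts). The difference of Akt2 was also -10.7 normalized counts without MøFoxO1-KO mouse 28. The median of the members stayed between -0.32 and -0.12. Members lower at an unadjusted P under 0.05 numbered 2 without a filter on low counts and 0 to 1 with a mouse left out. Members whose groups did not overlap numbered 0 to 2 with a mouse left out. These were Irs1 without WT mouse 24, Irs2 and Pik3ca without MøFoxO1-KO mouse 28, and Irs1 and Ptpn1 without MøFoxO1-KO mouse 29. The share of all tested genes without overlap, 9.71% with every mouse kept, was not counted with a mouse left out. Groups separate more easily by chance when a group has fewer mice, so these separations cannot be compared with that share. Of the further pathway genes, 2 had an adjusted P under 0.05 in DESeq2 (Trib3 and Pdk4) and 1 without a filter (Trib3). Those lower at an unadjusted P under 0.05 numbered 10 without a filter and 4 to 11 with a mouse left out. Those higher numbered 3 in DESeq2, 2 with upper-quartile scaling, 0 at 10 counts in every mouse and 0 to 4 with a mouse left out. The shares of all tested genes past these limits were counted for the main edgeR fit only. The counts of members and of further pathway genes under an alternative therefore cannot be set against a share. Between 3 and 5 neighbour pairs in the order of levels differed with a mouse left out, 3 of them without WT mouse 22, 24 or 25 or MøFoxO1-KO mouse 26, 27 or 29 and 5 without WT mouse 23. No paired analysis was possible because the groups share no replicate number. Depth limits Irs1 and Irs2 most, with 34 to 177 reads per mouse. The causes of these changes were not tested.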
